A study of Mus musculus with 2 samples.

Results

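The heat shock proteins and their DnaJ cochaperones were measured in the left cerebral cortex of mice aged 10 days. Members were the genes whose symbol begins with Hspa, Hsp90, Hspb, Hspd1, Hspe1, Hsph1, Dnaja, Dnajb or Dnajc, followed by a digit where the family is numbered, and that have a protein-coding transcript in the annotation. This rule found 72 genes of 55536 annotated, or of 22015 nuclear protein-coding genes. Total RNA was sequenced from 2 male B6CASTF1/J mice, the hybrid of C57BL/6J and CAST/EiJ, in libraries made from 300 ng of RNA with ERCC spike-ins (synthetic RNAs added as a reference). The libraries, called replicate 1 and replicate 2, are numbered as biological replicates of separate animals but carry the same donor identifier. There was no treatment, heat shock or control group, so no test was made, and each error below is the SD of the 2 libraries.

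Chaperones bind unfolded stretches of other proteins and help them to fold, to cross membranes or to be taken apart. HSP70 proteins, encoded by the Hspa genes, bind and release a client as they hydrolyse ATP, and J proteins (Dnaja, Dnajb and Dnajc) bring the client and start that hydrolysis. HSP110 proteins such as Hsph1 exchange the nucleotide, HSP90 proteins act later on kinases and receptors, and the small HSPB proteins hold unfolded clients without ATP. Some members are transcribed all the time, while others are raised by heat shock factor 1 when proteins unfold. Several kinds of neurons are known for raising the inducible HSP70 genes poorly.

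Heat shock factors bind repeats of a short unit in alternating orientation, and the ATF6 branch of the endoplasmic reticulum response acts through a longer element, so the start sites of members were read for both motifs. Promoters came from RefSeq on GRCm38.p6, from 250 bases before to 50 bases after the start, and 58 members had an entry with 75 promoters among them. Hspa8, Hsp90aa1 and Hsp90ab1, the most abundant members, were among the 14 without an entry. The motif of 3 units was GAA and its complement TTC in turn with any 2 bases between them, starting with either and read on both strands. It was found in 4 members, namely Hspd1, Hspe1, Dnajb6 and Hsph1. By promoter, it was in 6 of the members' 75, against 0.603% of all 32851 promoters of this length. The shorter pair of units, GAANNTTC or TTCNNGAA, which also lies within every longer match, was found in 16 members. By promoter, the pair was in 18 of the members' 75, against 15.1% of all promoters.

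The following stretches, 5′ to 3′ on the strand of the gene, are shown because they hold the motifs of a mitochondrial chaperonin gene, of an abundant constitutive J protein gene and of the classical inducible genes. Capitals mark the motif.
Hspe1, chr1:55088053-55088082, plus strand: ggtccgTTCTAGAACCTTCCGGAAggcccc
Dnajb6, chr5:29735844-29735873, plus strand: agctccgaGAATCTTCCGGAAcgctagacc
Hspa1a, chr17:34972222-34972291, minus strand: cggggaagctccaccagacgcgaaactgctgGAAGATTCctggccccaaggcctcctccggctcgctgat
Hspa1b, chr17:34959304-34959373, minus strand: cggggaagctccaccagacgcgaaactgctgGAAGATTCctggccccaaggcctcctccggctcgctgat
Hspb1, chr5:135887781-135887850, plus strand: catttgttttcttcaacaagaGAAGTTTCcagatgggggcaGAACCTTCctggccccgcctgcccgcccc

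Hspe1 and Hspd1 lie head to head on chromosome 1 and overlap by 112 bases, and the same bases were matched in both promoters. Hspa1a and Hspa1b lie 9951 bases apart on chromosome 17, and their printed stretches of 70 bases are identical. The Hsph1 match lies after the RefSeq start. The Dnajb6 stretch lies before the RefSeq start used but inside the gene as GENCODE M21 annotates it, where it overlaps annotated exons, and the Hspe1 stretch lies inside the annotated Hspd1 gene and overlaps an exon. In Hspa1a, Hspa1b and Hspb1 only the shorter pair was found in this window, and a missing match says only that these letters are not there.

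The endoplasmic reticulum stress element, CCAAT and CCACG with any 9 bases between them on either strand, was found in 3 members. All 3 encode chaperones of that compartment. By promoter, the element was in 3 of the members' 75, against 39 of all promoters (0.119%).
Hspa5, chr2:34772020-34772049, plus strand: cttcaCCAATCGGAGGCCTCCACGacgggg
Dnajc3, chr14:118937802-118937871, plus strand: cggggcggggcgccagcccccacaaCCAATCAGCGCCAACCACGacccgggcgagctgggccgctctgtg
Hsp90b1, chr10:86705533-86705656, minus strand: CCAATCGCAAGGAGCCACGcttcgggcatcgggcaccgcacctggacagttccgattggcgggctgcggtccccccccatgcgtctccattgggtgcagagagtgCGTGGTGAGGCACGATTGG
The Hsp90b1 promoter holds the element in both orientations, and the others hold it in the forward orientation. The Hspa5 stretch, like that of Dnajb6, lies inside the gene in GENCODE M21 and overlaps an annotated exon.

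The libraries held 31254528 expected counts in replicate 1 and 30218308 in replicate 2, of which 216920 and 209434 fell on members. Levels are TPM (a length-normalised abundance that sums to the same total in each library) from the gene table, and 1 TPM of a transcript with an effective length of 1 kb corresponds to 20.5 and 19.7 counts. The libraries differed by more than sampling noise, with a chi-square of 5.05 per degree of freedom over 18556 genes. All 8 cortical glutamatergic neuron markers were detected. Between the libraries, 6 of 6 oligodendrocyte markers (median log2 ratio of replicate 2 over replicate 1 of -0.37), 5 of 5 erythroid markers (-0.63) and 7 of 7 striatal neuron markers (-0.59) that averaged 100 counts or more were lower in replicate 2. The choroid plexus marker Ttr was at 303.5 TPM in replicate 2 and 7.35 TPM in replicate 1, and 11 of 11 immediate early genes were higher in replicate 2 (median log2 ratio 0.20). The part of these cell types in the members' values was not tested. In a bulk sample, fewer cells of a type and less RNA per cell cannot be told apart.

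Most members were expressed, and a few supplied most of the RNA. Of the 72 members, 62 reached 1 TPM in both libraries, a share to be read against the 59.6% of nuclear protein-coding genes that did. The median member was at 18.7 ± 0.38 TPM, and the median nuclear protein-coding gene at 3.94 ± 0.15 TPM (SD, n = 2). On average 10 members were at 100 TPM or more, 34 between 10 and 100 TPM, 18 between 1 and 10 TPM, and 10 below 1 TPM. Members held 0.941 ± 0.0026% of nuclear protein-coding TPM, and Hspa8, Hsp90ab1 and Hsp90aa1 together held 50.1 ± 0.30% of the members' TPM. The HSPA family held 33.2 ± 0.69%, the J proteins 31.1 ± 0.27% and the HSP90 family 29.9 ± 0.54% of it, although the J proteins count 45 genes and the HSP90 family 3. The order of these shares changed in the second quantification, with the J proteins at 33.5%, HSP90 at 30.9% and HSPA lowest at 29.8%.

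**Figure D1:**
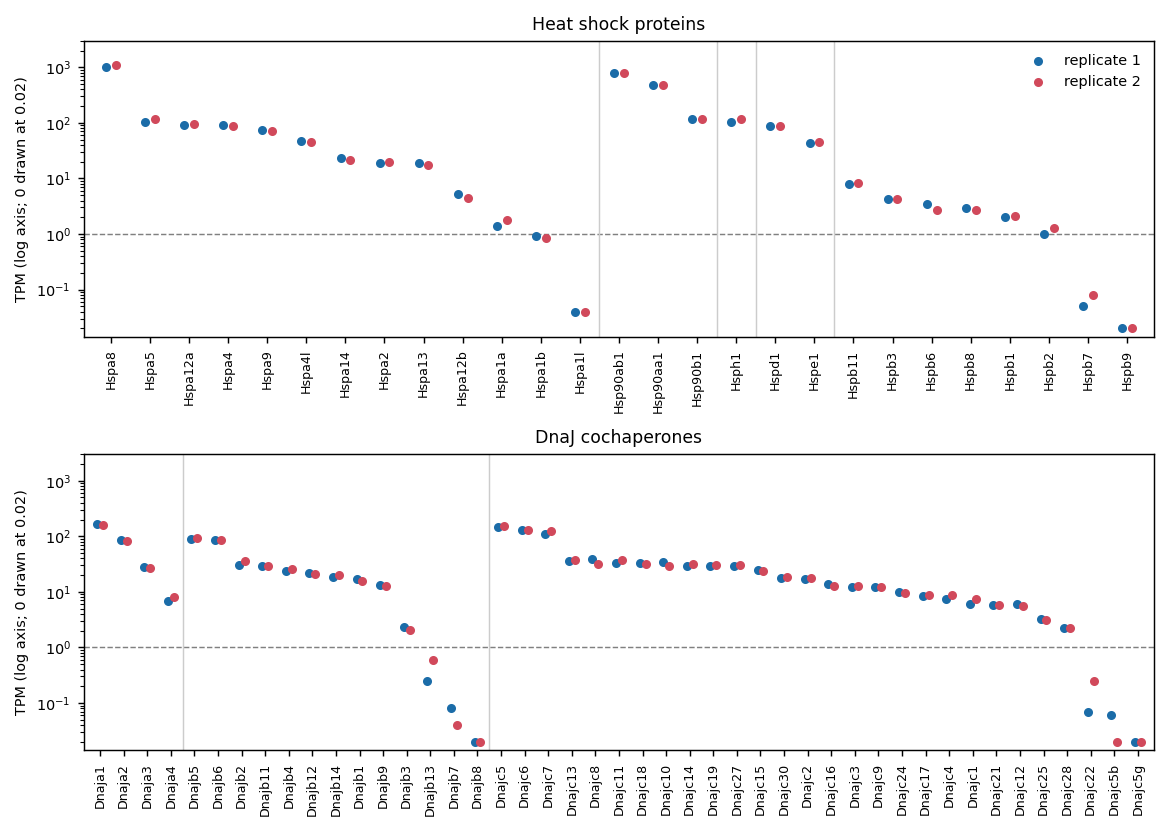
TPM (log axis, with 0 drawn at 0.02) of each of the 72 members, as a point per library, grouped by family with vertical lines; the dashed line marks 1 TPM. Hspa8 and the cytosolic HSP90 genes stand above all others, and the HSPB family stays below 10 TPM in both libraries.

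Among HSP70 genes the constitutive cytosolic Hspa8 stood far above the rest. It was at 999 TPM in replicate 1 and 1076 TPM in replicate 2, rank 10 among nuclear protein-coding genes. Hspa5, the HSP70 of the endoplasmic reticulum, followed at 104 and 116 TPM. Hspa12a, a distant relative, was at 89.6 and 94.5 TPM, Hspa4, an HSP110 type exchange factor, at 89.8 and 86.8 TPM, and Hspa9, the HSP70 of mitochondria, at 75.7 and 71.2 TPM. The order of Hspa12a and Hspa4 lies within the spread of the libraries, since their values are 92.1 ± 3.5 and 88.3 ± 2.1 TPM. Hspa2, known as a testis HSP70, was detected at 18.83 and 19.96 TPM.

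The inducible HSP70 genes were low, though well above the 0.0510 to 0.0563 TPM that 3 counts would give for them. Hspa1a was at 1.41 TPM in replicate 1 and 1.78 TPM in replicate 2, and Hspa1b at 0.92 and 0.83 TPM, from 51.1 and 44.3 counts. Summed, they reached 0.238 ± 0.0065% of Hspa8. Hspa1a and Hspa1b are near copies: their transcripts are 93.6% identical over 2701 aligned bases, and Hspa1a shares 65.4% of its 31-base words with other genes and Hspa1b 68.0%. How the reads divide between them is therefore uncertain, while their sum depends less on it. The third gene of that locus, Hspa1l, which is known from testis, stood at 0.04 TPM in both libraries, below the 0.0616 and 0.0642 TPM that 3 counts would give.

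The cytosolic HSP90 genes came next in abundance. The constitutive Hsp90ab1 was at 781 TPM in replicate 1 and 772 TPM in replicate 2, and the inducible Hsp90aa1 at 471 and 477 TPM. Unlike the HSP70 pair, inducible and constitutive HSP90 were thus within 2-fold, at a ratio of 0.610 ± 0.010. The ratio was 0.838 in the second quantification, so the error between libraries understates its uncertainty. Hsp90b1, which serves the endoplasmic reticulum, was at 116 and 117 TPM, beside the similar level of its compartment partner Hspa5.

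Over the lists, the 8 inducible cytosolic members had a median of 20.7 ± 0.58 TPM, with 7 detected, and the 8 constitutive cytosolic members a median of 102 ± 3.8 TPM, with 8 detected (SD, n = 2). The inducible list ran from 0.875 TPM for Hspa1b to 474 TPM for Hsp90aa1, so it does not share a level. Both lists were chosen with earlier results of these data known, and the SD does not measure that choice. Dnaja1, a J protein of the inducible list, was at 164 and 162 TPM, above Dnaja2 at 85.9 and 80.7 TPM. Hsph1, the heat-inducible HSP110, was at 102 TPM in replicate 1 and 116 TPM in replicate 2.

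Pairs of an inducible and a related constitutive gene were set by choice, with Dnaja2 used for both Dnajb1 and Dnajb4, and with Hspb6 standing for the small proteins although it is on neither list. In 5 of these 6 pairs the inducible member was the lower in TPM; Dnaja1 over Dnaja2, given above, is not among them and runs the other way. Dnajb1, the main heat-inducible cytosolic J protein, was at 16.8 and 15.9 TPM, 0.196 ± 0.0016 of Dnaja2, but 0.139 of it in the second quantification and 0.307 in expected counts, so the error between libraries understates the uncertainty. Dnajb4, its relative, was at 23.9 and 26.3 TPM, 0.302 ± 0.034 of Dnaja2. Hspb1 was at 2.00 and 2.08 TPM, 0.675 ± 0.12 of Hspb6. Hsph1 was the exception, at 1.24 ± 0.13 times Hspa4. The direction of the Hsph1 and Hspb1 pairs is not firm: Hsph1 over Hspa4 was 0.751 in expected counts that were not divided by length, and Hspb1 over Hspb6 was 1.10 in the second quantification.

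**Figure D2:**
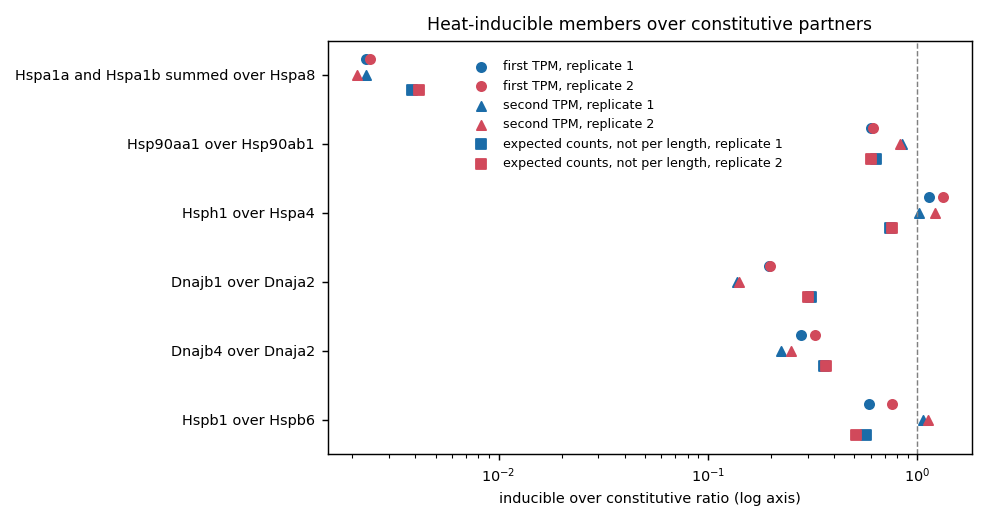
Ratio of the inducible over the constitutive member (log axis) for 6 pairs, in each library, from TPM of both quantifications and from expected counts not divided by length; the dashed line marks equal levels. The HSP70 pair lies between 0.0021 and 0.0042 in all 3 measures, while the Hsph1 and Hspb1 pairs have points on both sides of 1.

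The mitochondrial chaperonin Hspd1 was at 88.64 TPM in replicate 1 and 88.63 TPM in replicate 2. Its lid, Hspe1, was at 43.2 and 44.7 TPM. Hspe1 shares sequence with another annotated gene, AC117239.2, at 11.6 and 7.38 TPM, and how the reads divide between them was not tested. All 10 mitochondrial members were detected, with a median of 28.6 ± 0.39 TPM. All 13 members listed for the endoplasmic reticulum were detected too, with a median of 19.2 ± 0.76 TPM, from Dnajc25 at 3.19 and 3.06 TPM to Hsp90b1.

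The small HSPB genes were the lowest family, with 6 of 8 detected and 0.470 ± 0.0074% of the members' TPM. Hspb11, an intraflagellar transport protein, was highest at 7.82 TPM in replicate 1 and 8.28 TPM in replicate 2. Hspb3, known from muscle, was at 4.22 and 4.32 TPM, and Hspb6 at 3.39 and 2.74 TPM. Each rests on fewer than 100 counts per library. Cryab, a small heat shock protein that the symbol rule leaves out, was at 40.8 and 39.4 TPM. It overlaps Hspb2 (1.01 and 1.27 TPM) by 1030 bases on the opposite strand, and no source used here states whether counting used strand. In all, 18 members overlap an opposite-strand gene that was at 1 TPM or more in both libraries. No share over all genes stands beside this count, so it does not set the members apart.

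Among J proteins the highest were Dnaja1, Dnajc5 and Dnajc6. Dnajc5, the cysteine string protein of synaptic vesicles, was at 149 TPM in replicate 1 and 151 TPM in replicate 2. Dnajc6, the neuronal auxilin that strips clathrin coats with HSP70, was at 130 and 128 TPM. Dnajc7, a J protein that binds both HSP70 and HSP90, was at 109 and 123 TPM, and overlaps Cnp (48.3 and 44.8 TPM) on the opposite strand. Dnajc13, which acts at endosomes, was lower at 35.8 and 37.4 TPM.

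In the DNAJB family Dnajb5 was at 89.96 and 92.94 TPM, Dnajb6, which keeps aggregation-prone proteins soluble, at 87.2 and 85.6 TPM, and Dnajb2 at 29.9 and 35.6 TPM. The libraries' values of Dnajb5 and Dnajb6 did not overlap, though their means of 91.5 ± 2.1 and 86.4 ± 1.2 TPM lie close. Their order is not firm. It turned in the second quantification, with Dnajb6 at 147.9 and 138.1 TPM and Dnajb5 at 124.0 and 132.1 TPM. In the DNAJA family Dnaja3, of mitochondria, was at 27.5 and 26.8 TPM, and Dnaja4 at 6.71 and 8.23 TPM. All 6 J proteins listed as nuclear or RNA-linked were detected, with a median of 14.7 ± 0.40 TPM. Dnajc14, at 28.85 and 32.29 TPM, was put on that list by choice. Nothing measured here shows Dnajc14 to be nuclear or RNA-linked, and the median includes it. The splicing-associated Dnajc8 led this list at 38.9 and 32.4 TPM.

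Of the 11 members listed as testis or muscle genes, 3 were detected, namely Hspb3, Hspb2 and Dnajb3, and the list's median was 0.05 ± 0.014 TPM. This list leaves out Hspa2, named above as a testis HSP70, which was at 18.83 and 19.96 TPM, so the low median depends on the choice of genes. Hspb2 was near the limit, at 1.01 and 1.27 TPM from 14 and 15 counts, and overlaps Cryab as said above. Hspb9, Dnajb8 and Dnajc5g had 0 counts in both libraries, which allows up to 0.248, 0.202 and 0.184 TPM in replicate 1 at 3 counts. Such limits cover counting error only. Dnajb13, known from sperm flagella, was at 0.25 and 0.60 TPM, from 5 and 17 counts.

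The genes that work with the members outside the rule were also present. Hsf1, the main heat shock factor, was at 22.8 and 25.8 TPM, and Hsf2 at 16.5 and 19.0 TPM, while Hsf3, Hsf4 and Hsf5 were below 1 TPM. All 17 HSP90 cochaperones were detected, from Fnip1 at 10.7 and 10.3 TPM to the phosphatase Ppp5c at 75.7 and 79.2 TPM. All 14 HSP70 exchange factors and partners were detected, from Bag3, itself heat-inducible, at 2.16 and 2.58 TPM to Bag6 at 138 and 154 TPM. All 14 subunits of the cytosolic chaperonin and prefoldin were detected, from Pfdn4 at 17.4 and 19.4 TPM to Pfdn5 at 160 and 177 TPM. Of 12 other chaperones 11 were detected, led by Calr at 212 and 243 TPM, with the lens crystallin Cryaa lowest at 0.54 and 0.32 TPM. Of 12 stress-response targets 10 were detected, led by Atf4 at 46.9 and 47.6 TPM, with Atf3 lowest at 0.18 and 0.16 TPM.

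No member with enough counts to compare passed 1.5-fold between the libraries. Of the 54 that averaged 100 expected counts or more, 0 differed by 1.5-fold, against 1.11% of the 11982 nuclear protein-coding genes above that count, of which 0.768% were higher and 0.342% lower in replicate 2. The share over all genes was 0.501% with TMM factors, 0.484% with DESeq2 size factors, 0.534% with the total and 0.551% with 1 added to each TPM, and 0 members differed under each. With such shares a count of 0 of 54 is close to the background. The log2 ratio of replicate 2 over replicate 1 ran from -0.27 for Dnajc8 to 0.29 for Dnaja4, with 29 members higher and 25 lower in replicate 2. Of the 11982 genes, 7481 were higher and 4463 lower. The members' balance turned with the scaling. In expected counts scaled by TMM or by DESeq2 size factors, 20 of the 54 were higher in replicate 2. Their median was -0.03 under each, against -0.003 (TMM) and -0.004 (DESeq2) for the 11982 genes. In TPM the median log2 ratio was 0.02 for members and 0.04 for all these genes, and its median size 0.07 and 0.09. The other 18 members were below the count minimum and were not compared.

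**Figure D3:**
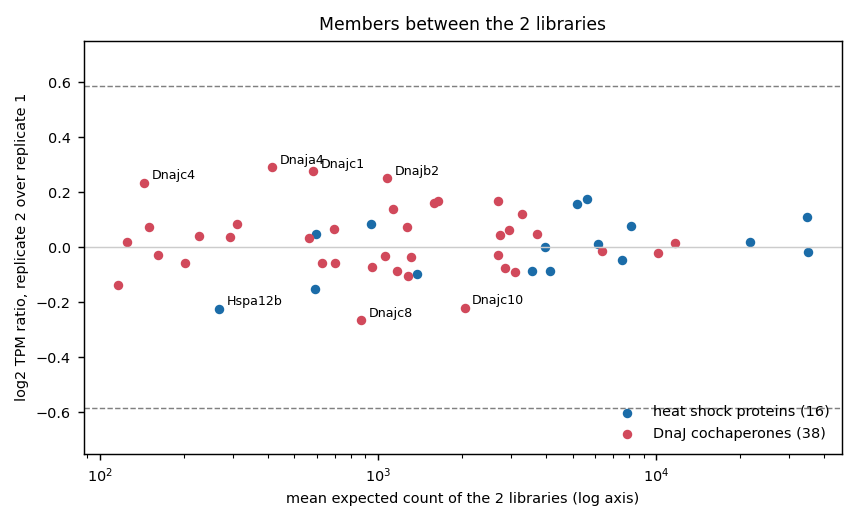
log2 ratio of TPM, replicate 2 over replicate 1, against the mean expected count (log axis) for the 54 members averaging 100 counts or more; dashed lines mark 1.5-fold. All points lie between the lines, and members beyond 0.2 either way are named.

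Several abundant members have processed pseudogenes, intronless copies that share long stretches with their messenger RNA, and reads were assigned to them. For Hspa8, the copy Gm15459 on chromosome 5 shares 38.6% of the 31-base words pooled over all annotated transcripts of its parent (1756 of 4549). That percent is of the parent and does not say how much of the copy is shared. Gm15459 was given 257 TPM in replicate 1 and 258 TPM in replicate 2, from 9700 and 9359 counts. Those are 27.9% and 27.0% of the counts given to Hspa8 itself. With its pseudogenes Hspa8 would stand at 1312 ± 54 TPM in place of 1038 ± 55 TPM. In the second quantification Gm15459 was at 338 and 346 TPM. Hsp90aa1 has the copy Gm12346, at 11.1 and 9.98 TPM, and Dnaja1 has Gm15542, at 23.4 and 22.9 TPM. Hspe1 shares 23.1% of its 31-base words with AC117239.2, which is annotated as protein-coding and so is not among the pseudogenes. AC117239.2 was given 11.6 and 7.38 TPM, from 99.3 and 60.5 counts. Whether these reads came from the copies, from AC117239.2 or from the members was not tested. In all, 15 members share 10% or more of their 31-base words with other genes, and 22 share none. Other genes were not counted in this way, so these numbers do not set the members apart.

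**Figure D4:**
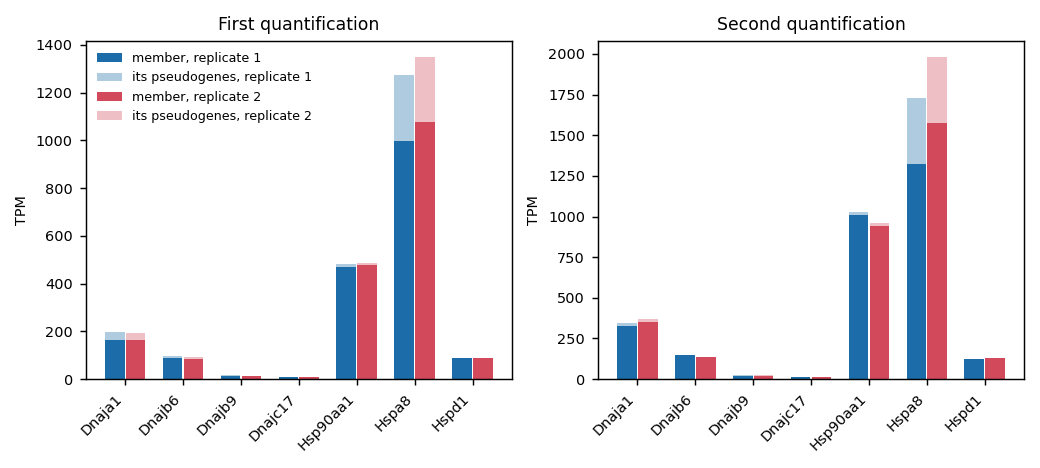
TPM of 7 members with pseudogenes that hold 10% or more of their 31-base words, in each library and quantification, as stacked bars from 0 with the pseudogenes on top in the lighter shade. For Hspa8 the lighter part adds 275 TPM in replicate 1 and 273 TPM in replicate 2 in the first quantification, and for Dnaja1 it adds 31.8 and 31.7 TPM.

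Part of the members' TPM lay in transcripts of a type other than protein-coding, such as retained introns. These are called non-coding here, although they take in transcripts typed as nonsense-mediated decay. In both quantifications 12 of the 62 detected members had 25% or more of their TPM there, against 24.0% of detected nuclear protein-coding genes. Dnajc15, a mitochondrial J protein, had 80.8% and 82.4% of its TPM in such transcripts in replicates 1 and 2, but only 22.5% of its counts, since the coding transcript has 6193 bases and the others 674 and 419 bases. Dnaja2 had 42.1% and 38.4% in a retained intron transcript of 507 bases. Dnajb5 had 39.1% and 37.9%, and Dnajc7 44.49% and 49.96%. Short transcripts gain TPM from the length correction: the retained intron transcript of Dnaja2 held 40.2% of the gene's TPM and 8.90% of its counts, and for Dnajc15 the leading transcript differed between TPM and counts.

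**Figure D5:**
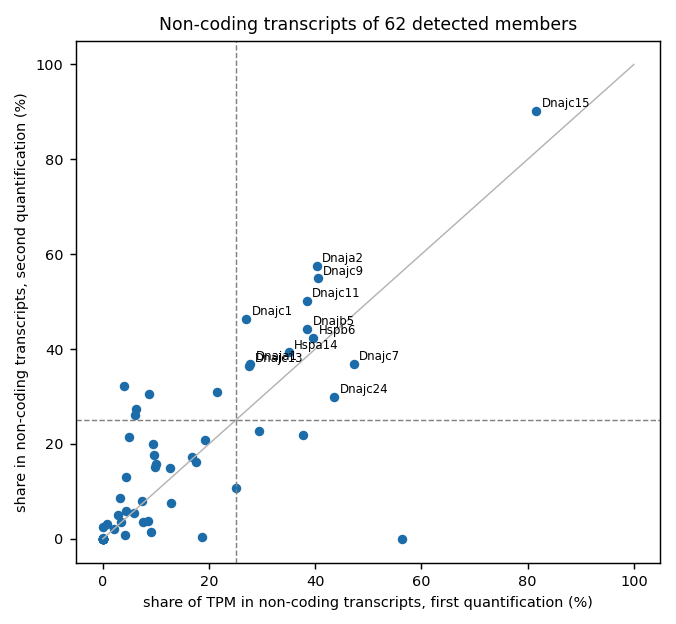
Share of each detected member's TPM in non-coding transcripts (all types other than protein-coding), as the mean of the 2 libraries, in the first (x axis) and second (y axis) quantification, both in percent. Dashed lines mark 25% and the grey line equality. Dnajc15 stands apart at 81.6% and 90.2%, and Dnajc19 lies at 56.3% in the first quantification and 0 in the second.

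The main transcript, the transcript with the largest share of TPM, differed between the quantifications for 11 of 57 detected members with more than 1 transcript, against 23.8% of such genes overall. For Hspa8 it was Hspa8-202 in the first, with 43.6% and 45.6%, and Hspa8-201 in the second, with 77.0% and 66.3%. For Dnaja2 it was the coding Dnaja2-201 in the first and the retained intron transcript in the second. For Dnajc19 a retained intron transcript led the first with 53.7% and 59.0% and was at 0 in the second. Dnajc13 also changed to a retained intron transcript, while Dnaja1, Dnajc5, Dnajc6, Hsph1, Dnajb2, Dnajb4 and Hspb11 changed between coding transcripts. For Dnajc5 and Hspb11 the change lies within the spread of the libraries, since the main transcript was the same in both quantifications in replicate 2 for Dnajc5 and in replicate 1 for Hspb11. The main transcript was non-coding for 2 members in the first quantification (Dnajc15 and Dnajc19; 7.11% of genes overall) and for 3 in the second (Dnajc15, Dnaja2 and Dnajc13; 8.84%). Hsp90aa1 kept its main transcript, but the coding fragment Hsp90aa1-207 of 481 bases held 44.7 ± 1.7% in the second quantification and 1.73 ± 0.49% in the first.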

How the data were processed

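The deposited tables, built on mm10 with GENCODE M21 per the deposited descriptions, were used as the authors made them: expected counts and TPM per gene and transcript from alignments to the transcriptome (the first quantification), and estimated counts and TPM per transcript from the reads with an index (the second), summed here by gene. The sources used here give no program, version or strand setting. Per the file headers, the authors also deposited each transcript's percent of its gene's abundance; the percents printed were recomputed from TPM. Members and lists were chosen with earlier results of these data known. The genes named are the 3 highest per family and some, not all, of the listed members. Also named are those past 1.5-fold between libraries and those with a non-coding or differing main transcript. Other names were chosen after their values were seen. The log2 ratio between libraries used TPM plus 0.1. The ratio was checked on simulated data. For the alternatives, expected counts were rounded and scaled with edgeR 4.0.16 (TMM) and DESeq2 1.42.0 (size factors), with no test. A comparison of member proteins was not run. Shared sequence was counted as 31-base words of the annotated transcripts. Motifs were searched on both strands. With 2 libraries of 1 group, the SD may hold technical spread only.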

Additional observations from a re-analysis of the deposited data

Results flagged for a closer look

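Pseudogenes that hold 10% or more of the 31-base words of a member were outside the comparisons, and 13 of them were above the limit of 3 counts in both libraries. The counts that follow are sums over both libraries. For Hspa8, Gm15459 held 19059, Gm8355 held 1193, Gm6210 held 31.2, Gm7232 held 15.6 and Gm8337 held 11.1 counts. For Hsp90aa1, Gm12346 held 914.9 and Gm5844 held 46.0 counts. For Dnaja1, Gm15542 held 1019.5 and Gm7816 held 378 counts. Gm2541 held 170.3 counts for Dnajb6, Gm6568 held 33.3 for Dnajb9, Gm6257 held 16.2 for Dnajc17 and Hspd1-ps3 held 41.9 for Hspd1. Gm2541 was at 0 TPM in both libraries of the second quantification.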

How the results depend on the processing

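The second quantification and the scaling to nuclear protein-coding genes raised the members' levels; in the second, nuclear protein-coding genes held 78.0% and 79.3% of TPM in replicates 1 and 2, against 48.0% and 49.0% in the first. The median over all members was 28.2 TPM in the second quantification and 38.6 TPM after that scaling, the inducible median 29.7 and 42.7 TPM, and the constitutive median 180.1 and 210.5 TPM. In the second quantification the HSPA share of member TPM was 29.8%, that of HSP90 30.9% and that of the J proteins 33.5%, and members held 0.946% of protein-coding TPM. The inducible over constitutive ratios there were 0.0022 for HSP70, 0.838 for HSP90, 0.139 for Dnajb1, 0.236 for Dnajb4 and 1.10 for Hspb1. From expected counts they were 0.0040 for HSP70, 0.751 for Hsph1, 0.307 for Dnajb1, 0.365 for Dnajb4 and 0.538 for Hspb1. With pseudogene reads added to the parent, chosen after seeing the data, they were 0.0019 for HSP70 and 0.625 for HSP90. Without a filter on low counts 3 members passed 1.5-fold between libraries (Dnajb13, Dnajc22 and Dnajc5b). The motif of 3 units was in 4 members, and the shorter pair in 16. Apart from the length correction in the counts, the cause was not tested. Counts of detected members were 60 at 2 TPM and 63 at 0.5 TPM. Leaving out either library moves a mean of 2 by less than 1 SD by construction, so it is no sign of stability. No paired analysis was possible because there is only 1 group.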
